A study of Mus musculus with 7 samples.

Results

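Malic enzyme 1 (Me1) was examined in mouse duodenum together with other enzymes that produce NADPH, namely the malic enzymes Me2 and Me3, 6-phosphogluconate dehydrogenase (Pgd), the NADP-linked isocitrate dehydrogenases Idh1 and Idh2, and the transhydrogenase Nnt. These 7 genes were taken by symbol from a table of 14795 genes, and all 7 were listed. Me1 was picked because it was lower in mice without intestinal PPARα, so its difference between the genotypes is described here without a test, and the other 6 genes were listed for their function. The RNA came from duodena of male mice after 8 weeks on a high-fat diet (HFD), 3 Ppara lox/lox controls and 4 Ppara I-KO mice, with strain C57BL/6 on the labels. Both groups are homozygous for the floxed Ppara allele, and I-KO mice also carry the Villin-Cre transgene, whose promoter is active in the intestinal epithelium, so muscle, immune and connective tissue cells of the sample keep an intact Ppara gene. The controls were littermates without Cre, so that the transgene and the loss of PPARα cannot be told apart in this design. Before sacrifice, all mice went 6 h without food and were then refed for 6 h, per the labels, and their age was not given in the sources used here.

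NADPH is the electron donor for the synthesis of fatty acids and cholesterol and for the reduction of glutathione and thioredoxin. In the cytosol it comes from ME1, which turns malate into pyruvate, from PGD and other enzymes in the oxidative branch of the pentose phosphate pathway, and from IDH1. In mitochondria IDH2, ME3 and NNT have this role, while ME2 works with NAD or NADP. PPARα is a nuclear receptor that binds fatty acids and acts on DNA together with RXR, and in rodent liver Me1 is a known target of PPARα and of the thyroid hormone receptor. Me1 and Pgd are also known targets of NRF2, the transcription factor of the antioxidant response.

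The sequence before the Me1 start site is shown because Me1 is the gene with the difference, and a short stretch at the start site is shown because it holds the core of the element bound by NRF2. RefSeq promoter windows of GRCm38.p6, from 250 bases before to 50 after a start site, were given for 5 of the 7 genes, in 8 windows. Me2 and Nnt had no entry. The stretches below are written in the direction of the gene, which is the minus strand. Capitals in the first mark the 13 bases that come closest to DR1, a direct repeat of AGGTCA with 1 base between the copies, which is the element bound by PPARα with RXR. Capitals in the other mark TGACNNNGC, the core of the antioxidant response element bound by NRF2.
Me1 upstream, chr9:86695954-86696164: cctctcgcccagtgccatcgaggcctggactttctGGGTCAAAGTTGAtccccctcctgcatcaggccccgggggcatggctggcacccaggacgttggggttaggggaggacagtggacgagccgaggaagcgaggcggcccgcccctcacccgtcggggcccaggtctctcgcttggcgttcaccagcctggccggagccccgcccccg
Me1 start site, chr9:86695902-86695930: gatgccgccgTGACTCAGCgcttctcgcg

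The 13 bases of Me1 lie from -215 to -203, counted from the RefSeq start site, and equal 9 of the 12 fixed bases of the repeat. In GENCODE M21 the gene starts farther upstream, at 86695953. The second stretch thus lies at the RefSeq start site but inside the gene of that annotation. Of all 32851 windows, 24.6% held a match as close on either strand, so the match is a description of the sequence. The full repeat was in 0.0396% of all windows and in none of the 8 windows here. The shorter core GGTCANAG, on either strand, was in 5.32% of all windows, and among the 8 only in 1 window of Me1. TGACNNNGC was in 12.4% of all windows, and here in 1 window each of Me1 (from -6 to 3) and Pgd (from 4 to 12). In Me1, GGTCANAG (from -214 to -207) lies within the 13 capital bases, so it is not a second match, and TGACNNNGC lies apart from them. The motifs were chosen after the Me1 window had been read and with its change known.

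The values are normalized counts, in counts per 1000000 of an adjusted library size (CPM), and where values are listed by mouse they follow replicate order, 1 to 3 for lox/lox and 1 to 4 for I-KO. The libraries held between 20744300 and 25893354 reads on genes of the table, as computed from the smallest step between values. Enterocyte markers were present, with the highest values for Apoa1 and Apoa4. The 10 genes summed to between 54060 and 63450 CPM in lox/lox and between 53540 and 70180 CPM in I-KO. Among them Vil1 was higher in every I-KO library (2947 to 3383 CPM) than in any control (2735 to 2884 CPM). Fabp1 was lower in every I-KO library (2109 to 3215 CPM) than in any control (3380 to 4228 CPM), with an adjusted p of 0.822 from limma. The distal gut genes Fabp6 and Car1 were not listed. Proximal small intestine genes (6 listed) summed to between 419 and 628 CPM in lox/lox and between 510 and 676 CPM in I-KO. The lowest sum, in lox/lox replicate 3, went with 16.9 CPM of Cybrd1 and 49.3 CPM of Slc40a1. The remaining libraries had 56.1 to 78.5 and 103 to 162 CPM. Pdx1 and Gata4 were also lowest in that control, Onecut2 and Cdx1 in I-KO replicate 1. The same control had the most Me1, and whether its site in the gut differed was not tested. Genes of pancreatic acinar cells (12 listed of 14) summed to 388 CPM in I-KO replicate 1 and 91.3 CPM in lox/lox replicate 2, while the remaining 5 libraries had 27.0 to 42.5 CPM. Adipocytes are rich in Me1, and 6 of their 7 marker genes were listed. These summed to between 139 and 145 CPM in lox/lox and between 121 and 159 CPM in I-KO, most of it from Cidec. Fabp4 was between 17.2 and 23.8 CPM, while the defining genes Adipoq and Plin1 were at most 2.10 CPM in any library. The sum hides a spread in the lower genes, with Adipoq from 0.21 to 2.10 CPM and Cfd from 1.06 to 7.68 CPM. In I-KO Adipoq, Cfd and the low marker Retn had the library order of Me1. Cidec had the reverse order, and Fabp4 and Plin1 had other orders. In the controls Adipoq, Cfd, Retn and Fabp4 were highest in replicate 2, where Me1 and Cidec were lowest. Plin1 had 0.43 CPM in both replicates 2 and 3. The part of fat cells in the Me1 values was not tested. Ppara itself had 53.4, 49.3 and 63.2 CPM in the controls and 33.0, 40.6, 47.5 and 69.9 CPM in the libraries labelled I-KO, of which replicate 4 lay above all controls (log2 difference -0.25, standard error 0.22, adjusted p = 0.954 from limma). Whether the floxed part was lost cannot be read from this total, which includes the rest of the gene and the cells in which Cre is silent.

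Me1 was lower in every I-KO mouse than in any control. The gene lies on chromosome 9 of GRCm38 (mm10) from 86581371 to 86695953, on the minus strand, with 3.85 kb of exon in the GENCODE M21 annotation. Me1 had 39.2, 29.7 and 42.5 CPM in the controls. The I-KO mice had 13.3, 14.7, 12.8 and 18.0 CPM. The lowest control, lox/lox replicate 2, was thus well above the highest I-KO library, replicate 4, and the groups did not overlap. The means were 37.2 ± 6.66 CPM (SD, n = 3) and 14.7 ± 2.33 CPM (SD, n = 4), which is a ratio of 0.395, or 60.5% lower in I-KO. On the scale of log2(CPM + 1), which understates the change of low genes, the difference was -1.28 (standard error 0.15). Of the 13399 genes tested, those that exceeded 1 CPM in 3 or more libraries, 3.28% were lower in I-KO without overlap and 6 had a larger fall than Me1. Since Me1 was chosen on this contrast, nothing further is read from these values. In whole duodenum, fewer cells that express a gene and less RNA of that gene per cell cannot be told apart.

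With lox/lox replicate 2 and I-KO replicate 1, the 2 libraries with acinar genes, both left out, the log2 difference of Me1 was -1.39. It lay between -1.43 and -1.18 with each single library left out, and was -1.18 without lox/lox replicate 3. As Me1 was chosen for its fall, these values are a description and not a test.

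**Figure D1:**
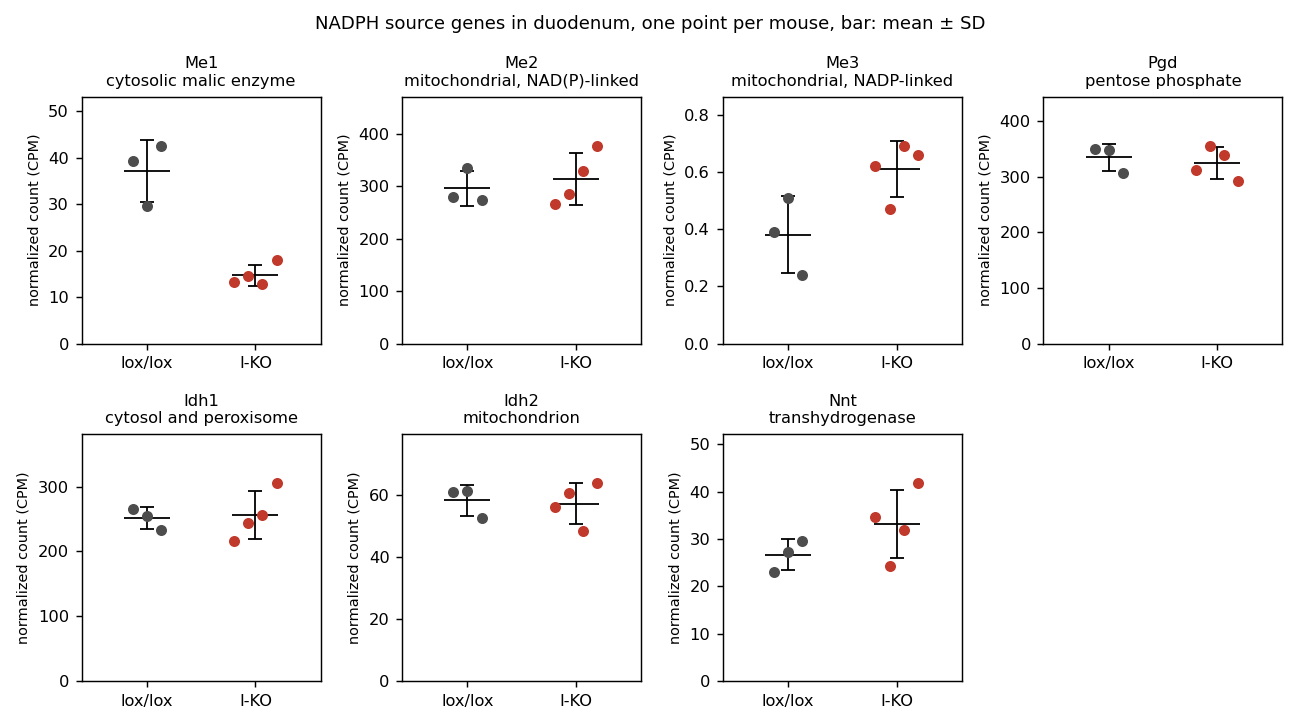
Normalized counts (CPM, linear axes from 0) of the 7 genes in 3 lox/lox (grey) and 4 I-KO (red) duodena, one point per mouse, with the mean and SD as bars. For Me1 the I-KO mice sit between 12.8 and 18.0 CPM and the lox/lox mice between 29.7 and 42.5 CPM, while in the other 6 panels the groups overlap.

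The mitochondrial malic enzymes had higher means in I-KO, and neither passed an adjusted p of 0.05. Me2 had 280, 334 and 273 CPM in the controls. The I-KO values were 265, 286, 329 and 376 CPM, so that both the lowest and the highest value were in I-KO mice. The means were 296 ± 33.7 CPM (SD, n = 3) and 314 ± 49.5 CPM (SD, n = 4), with a log2 difference of 0.08 (standard error 0.13, 95% interval -0.22 to 0.38, adjusted p = 0.97 from limma). The interval does not reach below -0.22. Me3 was near the limit of detection, at 0.39, 0.51 and 0.24 CPM in lox/lox and 0.62, 0.47, 0.69 and 0.66 CPM in I-KO mice. No library reached 1 CPM, so Me3 did not pass the filter on low values. Of the I-KO libraries 3 lay above every control and I-KO replicate 2 lay among them (exact two-sided permutation test over the 35 splits of the mice, p = 0.114). Fitted without the filter, Me3 had a log2 difference of 0.23 with an unadjusted p of 0.0446 and an adjusted p of 0.962 from limma.

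Taken per kb of exon, so that genes of different length can be compared, Me1 made up the minor share of malic enzyme transcript. In the controls it was 20.9, 14.3 and 22.7% of the sum of Me1, Me2 and Me3. In I-KO it was 8.64, 8.81, 6.83 and 8.25%. Me2 exceeded Me1 in all 7 mice, by 3.40 to 5.97 times in controls and by 10.3 to 13.6 times in I-KO. These shares use the same Me1 values as above and are not a second line of evidence.

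Pgd, which makes NADPH in the oxidative branch of the pentose phosphate pathway, had the highest mean CPM of the 7 genes in both genotypes. The controls had 351, 348 and 307 CPM. The I-KO mice had 313, 356, 340 and 292 CPM, with the highest and the lowest value both in I-KO mice. The means were 335 ± 24.7 CPM (SD, n = 3) and 325 ± 28.2 CPM (SD, n = 4), and the log2 difference was -0.05 (standard error 0.10, 95% interval -0.27 to 0.18, adjusted p = 0.977 from limma).

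The isocitrate dehydrogenases overlapped between the groups as well. Idh1, the form of cytosol and peroxisomes, had 266, 255 and 233 CPM in the controls. In I-KO it had 217, 244, 257 and 305 CPM, a range that encloses all controls. The log2 difference was 0.02 (standard error 0.12, 95% interval -0.25 to 0.29, adjusted p = 0.996 from limma), with the opposite sign under equal column totals (-0.02). Idh2, the mitochondrial form, had 61.0, 61.4 and 52.6 CPM in lox/lox and 56.2, 60.6, 48.6 and 63.9 CPM in I-KO mice, again overlapping. Its log2 difference was -0.03 (standard error 0.11, 95% interval -0.28 to 0.22, adjusted p = 0.987 from limma). Per kb, Idh1 was between 3.60 and 4.93 times Idh2 in every mouse.

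Among the 5 tested genes other than Me1, Nnt had the largest difference, with a mean 24.2% higher in I-KO that did not pass the test. It encodes the inner membrane protein that uses the proton gradient to pass electrons from NADH to NADP. The controls had 23.1, 27.3 and 29.7 CPM. The I-KO values were 34.7, 24.2, 31.9 and 41.8 CPM, so that 3 I-KO mice lay above all controls and replicate 2 lay among them. The means of 26.7 ± 3.32 CPM (SD, n = 3) and 33.1 ± 7.25 CPM (SD, n = 4) gave a log2 difference of 0.28 (standard error 0.17, 95% interval -0.10 to 0.67). This did not pass (adjusted p = 0.954 from limma, and an exact two-sided permutation test gave p = 0.229, where 0.0286 is the smallest that 3 against 4 mice allow). Leaving out I-KO replicate 2 raised the log2 difference of Nnt to 0.42, and leaving out replicate 4 lowered it to 0.17, both short of the threshold over all genes. C57BL/6J mice carry a deletion within Nnt that other C57BL/6 substrains lack, and the study's methods call the background of all its mice mainly C57BL/6J. A gene total does not show which allele a mouse had, and the annotation holds 2 overlapping entries for the gene.

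Of the 6 genes beside Me1, 5 passed the filter and 0 passed an adjusted p of 0.05 by limma (smallest adjusted p = 0.954), and 0 passed an unadjusted p of 0.05. Over all 13399 genes tested, 0.0299% passed the adjusted threshold (0.00746% lower in I-KO) and 4.74% the unadjusted one (2.42% lower and 2.32% higher). The groups did not overlap in 0 of the 5 genes, against 6.19% of all genes in either direction (3.28% lower and 2.91% higher). Of the 5 log2 differences, 3 were above and 2 below 0, with a median of 0.02, beside a median of 0.0017 over all genes. For Me2, Pgd, Idh1 and Idh2 the 95% intervals reach no further than 0.38 from 0, and for Nnt to 0.67, so differences up to these bounds remain possible.

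**Figure D2:**
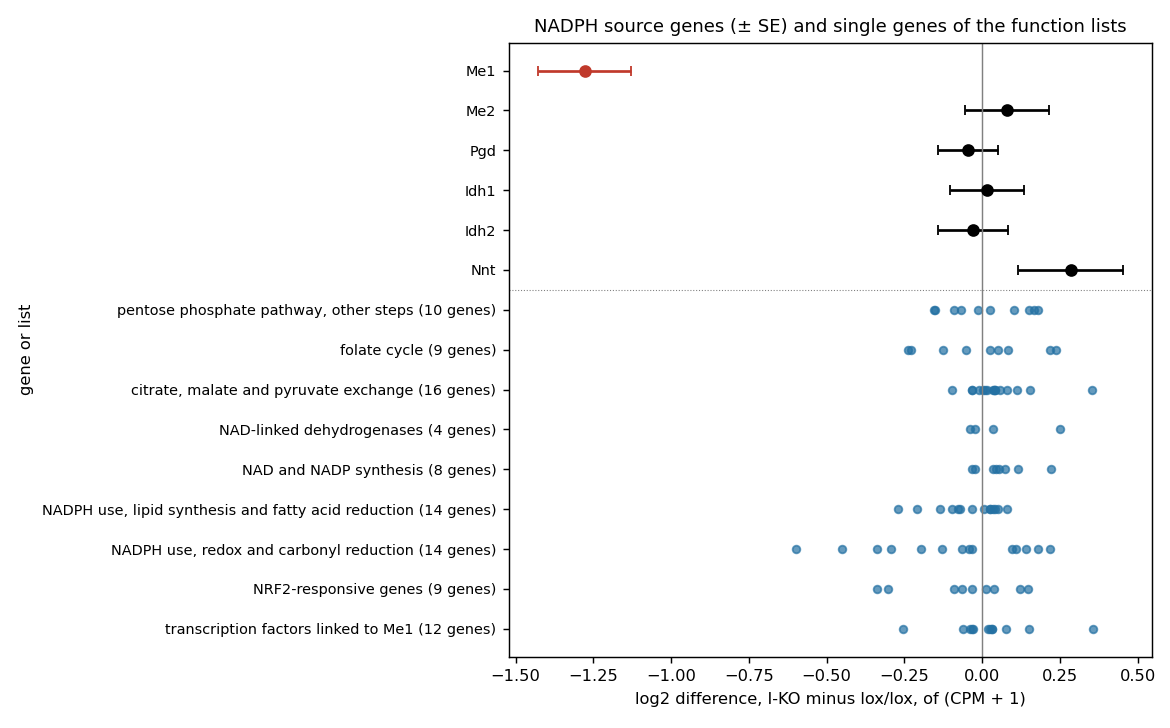
Difference between I-KO and lox/lox on the scale of log2(CPM + 1), for the 6 genes that passed the filter (points with standard error) and, below the dotted line, for the single genes of 9 lists of related function. Me1 lies at -1.28, the other NADPH source genes lie between -0.05 and 0.28, and the list genes lie between -0.60 and 0.36.

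Per kb of exon, Idh1 and Pgd were the most abundant of the 7 transcripts in both genotypes. In lox/lox mice Idh1 was highest, with 90.7 ± 6.18 CPM per kb (SD, n = 3), followed by Pgd with 52.0 ± 3.83 and Me2 with 40.8 ± 4.64 CPM per kb. These did not overlap with one another in the 3 controls. Idh2 came next with 22.6 ± 1.92 CPM per kb. Me1 was the fifth with 9.66 ± 1.73 CPM per kb and lay clear of Nnt, which had 3.79 ± 0.47 CPM per kb. In I-KO mice Me1 had 3.82 ± 0.60 CPM per kb (SD, n = 4) and fell into the range of Nnt, which had 4.71 ± 1.03 CPM per kb. Me3 was last in both, at 0.026 and 0.042 CPM per kb. Exonic length counts every annotated exon, so genes with long rare exons, Me3 above all with 14.62 kb, are placed too low.

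**Figure D3:**
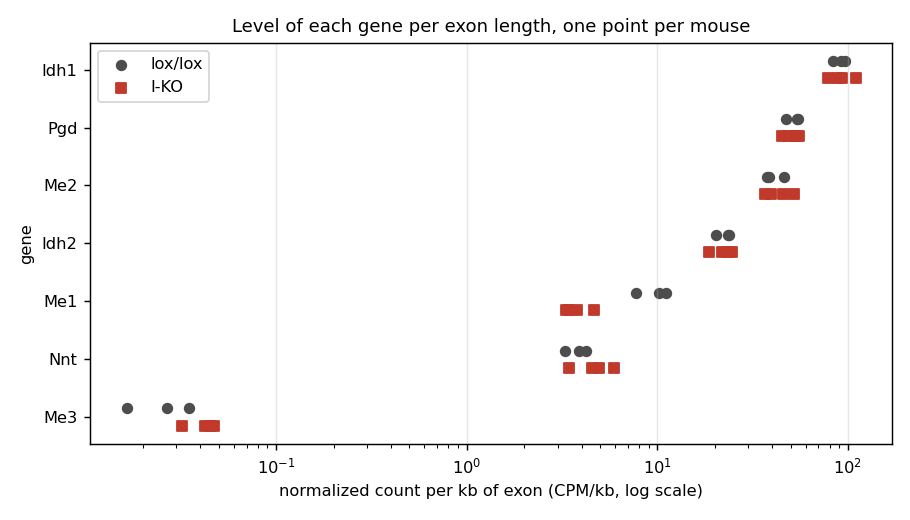
Normalized count per kb of exon (CPM per kb, log axis) of each gene in each mouse, with lox/lox as grey circles and I-KO as red squares. Idh1, Pgd and Me2 stand highest in both genotypes, and Me1 moves from between 7.73 and 11.1 CPM per kb in lox/lox to between 3.33 and 4.67 CPM per kb in I-KO, beside Nnt.

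Among the libraries, I-KO replicate 4 was most often at an end of the range. I-KO replicate 4 was the highest of all 7 libraries for 4 of the 6 genes above the filter (Me2, Idh1, Idh2 and Nnt) and the lowest for Pgd, and it was the highest of the I-KO mice for Me1. The same library had the most Ppara, with 69.9 CPM. I-KO replicate 1, the library with the acinar genes, was the lowest of all for Me2 and Idh1. Without I-KO replicate 4 the log2 differences of Me2, Pgd and Idh1 changed sign, to -0.01, 0.0046 and -0.07, and none of them passed the test with or without it. Me1 and Ppara had the same order in the controls, with replicate 3 highest and replicate 2 lowest, but not in the I-KO mice, where Me1 was lowest in replicate 3 and Ppara in replicate 1. With 3 and 4 mice a group, no correlation was computed.

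Genes that act next to these enzymes were compared from lists of related function, of which 93 genes in all could be tested. None of them passed an adjusted p of 0.05 by limma (0 genes, smallest adjusted p = 0.845), and 5 passed an unadjusted p of 0.05, 3 higher and 2 lower in I-KO, beside 4.74% of all genes. Of the 93 genes, 40 were below 0 with the deposited scaling, and 57 with equal column totals, so the balance of directions depends on the scaling. The groups did not overlap in 10 of the 93 genes, 4 lower and 6 higher in I-KO, beside 6.19% of all genes.

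Of 10 genes for the other steps of the pentose phosphate pathway, 0 passed at either threshold by limma, with a median log2 difference of 0.0060 and a range from -0.15 to 0.18. The ends of this range were the sugar phosphate isomerase Rpia (48.1 ± 2.52 CPM in lox/lox, SD, n = 3, and 43.1 ± 3.49 CPM in I-KO, SD, n = 4) and the epimerase Rpe (44.1 ± 3.80 and 50.2 ± 6.60 CPM). The folate cycle, another source of NADPH, had 9 tested genes of 10, with 0 past either threshold by limma and a range from -0.24 to 0.24. The lowest was the mitochondrial enzyme Mthfd2 (17.8 ± 1.92 and 14.99 ± 2.21 CPM) and the highest Aldh1l1, which makes NADPH from formyltetrahydrofolate (161 ± 10.4 and 191 ± 21.5 CPM).

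Of 16 genes that carry or convert citrate, malate, aspartate and pyruvate, the partners of malic enzyme, 12 were above and 4 below 0, with a median of 0.04. The 1 gene past an unadjusted p of 0.05 was Pcx, pyruvate carboxylase, which turns pyruvate back into oxaloacetate. Pcx had 110, 89.2 and 97.2 CPM in the controls and 127, 116, 145 and 118 CPM in the I-KO mice. Its groups did not overlap, and the log2 difference of 0.35 (standard error 0.11) had an adjusted p of 0.845 from limma, so it failed the correction over all genes. The lowest was the mitochondrial aspartate aminotransferase Got2, with 103 ± 2.90 and 95.8 ± 4.89 CPM and no overlap. Of 4 related dehydrogenase genes (the NAD-linked Idh3a, Idh3b and Idh3g, and Glud1), 0 passed at either threshold by limma. Glud1, glutamate dehydrogenase, was at the upper end with 207 ± 9.96 and 250 ± 52.3 CPM, and Idh3a at the lower end with 161 ± 6.14 and 157 ± 14.0 CPM. Of 8 tested genes of 10 for NAD and NADP synthesis, 0 passed at either threshold by limma, with a range from -0.03 for the kinase Nmrk1 to 0.22 for the adenylyltransferase Nmnat3.

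Among the users of NADPH, the 14 genes of lipid synthesis and fatty acid reduction had a median log2 difference of -0.01. The 1 gene past an unadjusted p of 0.05 was Decr2, the peroxisomal dienoyl-CoA reductase, which takes electrons from NADPH during the oxidation of polyunsaturated fatty acids. Decr2 had 60.8, 60.4 and 74.9 CPM in lox/lox and 57.0, 52.2, 52.5 and 53.1 CPM in I-KO mice, without overlap, and a log2 difference of -0.27 (standard error 0.10, adjusted p = 0.954 from limma). The highest of the list was the fatty acid elongation enzyme Tecr, with 69.3 ± 5.35 and 73.3 ± 5.90 CPM. Of 14 tested genes of 16 for redox and carbonyl reduction, 9 were below and 5 above 0. Ptgr1, which reduces prostaglandins and unsaturated aldehydes, was past an unadjusted p of 0.05, with 89.7 ± 4.27 and 105 ± 9.56 CPM without overlap and a log2 difference of 0.22 (adjusted p = 0.954 from limma). The largest fall in the list, -0.60 for the oxidase maturation factor Duoxa2, had a standard error of 0.47 with 5.79 CPM in I-KO replicate 4 and between 16.9 and 29.6 CPM in the remaining I-KO mice.

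Of 9 NRF2-responsive genes, 0 passed the adjusted threshold by limma and 1, the cystine transporter gene Slc7a11, passed the unadjusted one, with a median log2 difference of -0.03 over the list. Slc7a11 had means of 3.91 and 3.00 CPM and a log2 difference of -0.30 (standard error 0.12), with an adjusted p of 0.954 from limma. The ends of the list were Gsr, glutathione reductase (118 ± 15.2 and 93.5 ± 16.3 CPM), and Gclm, a subunit of the enzyme of glutathione synthesis (96.1 ± 6.42 and 107 ± 15.6 CPM). Of 12 genes for transcription factors and partners linked to Me1, 0 passed the adjusted threshold by limma. Pparg, the isotype known from fat cells, was past the unadjusted one, with 16.6, 15.9 and 11.9 CPM in lox/lox and 19.7, 18.1, 18.1 and 20.4 CPM in I-KO mice. Its log2 difference of 0.36 (standard error 0.12) had an adjusted p of 0.954 from limma, and the groups did not overlap. The lowest of this list was Ppara itself, with the values given above.

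The genes whose pattern came closest to that of Me1 were found by the root mean square difference over the 7 libraries of log2(CPM + 1), after the lox/lox mean of each gene was set to 0. The typical tested gene differed from Me1 by 0.997 on this measure. The 5 closest were Acaa1b at 0.343, Cyp4a10 at 0.345, Nkain1 at 0.426, Pdk4 at 0.428 and Slc25a20 at 0.430. Acaa1b encodes a peroxisomal thiolase, Cyp4a10 a fatty acid omega-hydroxylase, Pdk4 a kinase that inhibits pyruvate dehydrogenase, Slc25a20 the mitochondrial carnitine and acylcarnitine carrier, and Nkain1 a protein that interacts with the sodium pump. The measure picks genes that were also lower in I-KO, so their differences, and any library order they share with Me1, follow from the choice and are given as values with no test.

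Acaa1b had 41.5, 47.7 and 83.3 CPM in the controls and 28.9, 23.9, 24.7 and 32.0 CPM in the I-KO mice. Cyp4a10 had 1.78, 2.57 and 4.87 CPM and 0.29, 0.24, 0.21 and 0.58 CPM, and it passed the filter on low values only through the 3 controls. Pdk4 had 29.8, 21.0 and 59.2 CPM and 13.03, 11.6, 15.5 and 27.9 CPM. Slc25a20 had 105, 104 and 130 CPM in lox/lox and 62.8, 62.8, 73.3 and 54.2 CPM in I-KO, with replicate 4 the lowest of the I-KO mice. Nkain1 had 9.13, 10.1 and 6.44 CPM and 3.93, 4.12, 4.08 and 3.47 CPM. Of the 5 genes, Pdk4 alone overlapped between the groups. Acaa1b and Cyp4a10 belong to families with closely similar members, so reads may have been split or lost between them.

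**Figure D4:**
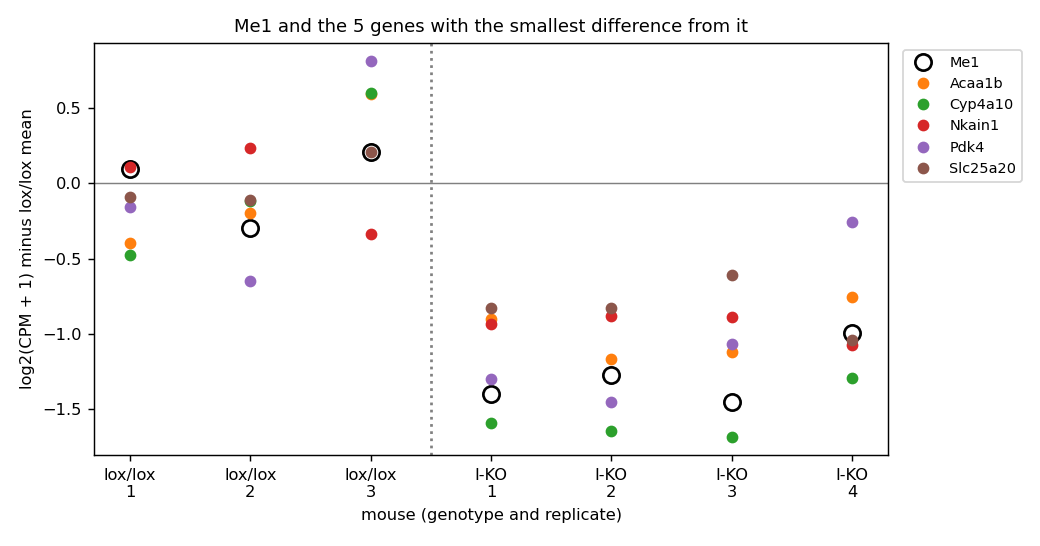
Log2(CPM + 1) of Me1 (open circles) and of the 5 closest genes in each mouse, less the lox/lox mean of the gene. All 6 genes lie below 0 in the 4 I-KO mice, and lox/lox replicate 3 is the highest control for all but Nkain1.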

How the data were processed

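Duodenal RNA of 3 lox/lox and 4 I-KO mice was sequenced with 100 base single reads from stranded mRNA libraries. Per the labels, the submitters' processing notes name FastQC 0.11.2, TopHat2 2.0.13, Picard 1.80, HTSeq 0.6.1 and edgeR with mm10. The authors deposited 1 table of signal values, gene counts scaled to an adjusted library size (CPM) with 2 decimals. A line without a gene name was dropped. Each low value lay within 0.005 of a multiple of 1 read, but the share within 0.1 of that step was under 95% in 4 libraries, so whole reads were not taken as recovered and no count test was run. Groups and numbers came from the labels. The labels call the replicates biological.

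The 13399 genes that exceeded 1 CPM in 3 or more libraries were fitted with limma 3.58.1 in R 4.3.3 on log2(value + 1), with genotype as the only term, and two-sided p-values were adjusted by Benjamini-Hochberg over all of them. The fit was tested on simulated data. The genes and lists were chosen with earlier results of these data known. One further gene of the group is not reported here. Named genes are the 7 genes, Ppara, the ends of each list, any list gene past the adjusted threshold, and the 5 genes closest to Me1. Slc7a11 and other list genes past an unadjusted p of 0.05 were named after their values were seen. Of the list genes, 3 were matched by RefSeq synonyms. Alternatives were median-of-ratios size factors, equal column totals, no filter, a pseudocount of 0.5, leaving out each library in turn, and a block for the replicate number. Chosen after seeing the data were an intensity trend, sample quality weights and leaving out both libraries with acinar genes. Tables were made with Python 3.11.15.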

Additional observations from a re-analysis of the deposited data

Results flagged for a closer look

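Pancreatic acinar genes stood apart in I-KO replicate 1, where they summed to 388 CPM, while the remaining I-KO mice had 27.0 to 42.5 CPM. The distance to its nearest neighbour was 0.957 of the whole range, above Dixon's 95% critical value for 4 samples. Of 40 quantities searched in the I-KO group this was the only 1 to stand out, where about 5% of groups do so by chance. None of the 7 NADPH source genes had such a library among the I-KO mice. The part of acinar RNA in the low Me2 and Idh1 of this library was not tested, and with this library and lox/lox replicate 2 left out the log2 differences were 0.25 for Me2 and 0.10 for Idh1.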

How the results depend on the processing

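The log2 difference of Me1 lay between -1.43 and -1.18 with single libraries left out and between -1.39 and -1.16 under the other alternatives. Me1 was chosen for its fall, so these ranges only describe its values and are not support. The 5 other genes tested were never called, with 0 called among them and 0 among the list genes under all 15 alternatives, and their adjusted p from limma lay between 0.767 and 0.9997. At an unadjusted p of 0.05, Nnt passed without I-KO replicate 2 and Me3 without the filter (log2 difference 0.23, adjusted p = 0.962 from limma). Nnt stayed between 0.15 and 0.42. Other genes near 0 changed sign. With equal column totals Idh1 was at -0.0206, with sample quality weights Me2 was at -0.0187 and Idh1 at -0.0052, and with both libraries with acinar genes left out Idh2 was at 0.0158. With single libraries left out the ranges were -0.0112 to 0.171 for Me2, -0.108 to 0.0046 for Pgd, -0.0718 to 0.0921 for Idh1 and -0.101 to 0.0462 for Idh2. The replicate block gave -0.0112 for Me2, 0.0046 for Pgd and -0.0718 for Idh1. It uses only the numbers found in both groups, so I-KO replicate 4 drops out. Libraries of the 2 groups were correlated over genes after the group mean of each gene was subtracted from log2(value + 1). Same-numbered libraries had correlations of these deviations of -0.014, 0.184 and -0.009. These lay within the span of differently numbered ones (-0.355 to 0.283), so no pairing by number was seen. With so few mice, a shared litter, cage or batch cannot be read from these correlations. With the block, 3 genes were called. Over all genes 4 were called, between 3 and 5 with single libraries left out and 12 when sample quality weights were used. The cause of the larger count was not tested. The planned edgeR and DESeq2 tests on whole reads were not run, since the values did not give whole reads within the tolerance set. Depth limits Me3 most, which rests on few reads per library.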
